A study of Homo sapiens with 2 samples.

Results

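The genes described here are those of the deposited table to which no read of the library of wild-type cells was assigned, while reads of the library of TMEM25 knockout cells were. They were chosen by a wild-type read count of exactly 0, which 100 of the 2046 genes of the table had. The 7 genes ME1, SOCS2, GSTT1, KCNJ3, CTNND2, MAOB and WIPF1 and the symbol families of transporters, zinc finger, adhesion, collagen, small GTPase and ubiquitin ligase genes named in the rule were set aside. This removed 10 genes, among them SLC4A10, SLC25A48 and TRIM39-RPP21, and left 90. The wild-type value that chose these genes belongs to the same contrast as every other value below, so their values are a description and no test was made.

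Both libraries were labelled as MDA-MB-231, an established human triple-negative breast cancer line, grown in DMEM with fetal bovine serum. Whether the cells were of this line was not tested. One library was wild type, labelled TAMER+/+, and the other TAMER-/-. The design text names the knocked-out gene as TMEM25, a transmembrane protein, and never mentions TAMER, so that both names mean 1 gene is an assumption. By its title the series asks about STAT3 activation through monomeric EGFR. Each genotype had 1 library, and the labels do not say whether the knockout cells were 1 clone or a pool, so no difference has a replicate check. In bulk RNA of this kind, fewer cells of a type and less RNA per cell cannot be told apart.

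A read count of 0 says that no read of that library was assigned to the gene, which can hold for a silent gene and for a gene of low level or one whose reads are given to a sequence copy. Many genes without reads in a cell line belong to the programs of other tissues, such as germ cells, neurons or muscle, and are kept off by a lack of their activators, by repressive chromatin or by DNA methylation at the promoter. The 90 genes included LPIN2, a phosphatidate phosphatase of glycerolipid synthesis, HENMT1, the methyltransferase that protects the ends of piRNAs in germ cells, ARNT2, a partner of sensor transcription factors that is prominent in neurons, and TNFRSF11B, the secreted decoy receptor osteoprotegerin.

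Every gene of the table had a deposited ratio of knockout to wild type of 2 or more and a knockout value of 1 or more, so genes lower in the knockout library were not analysed here. TMEM25 was not in the table, and the loss of its RNA could not be checked. The 2046 genes held 4138960 knockout reads and 1047000 wild-type reads, which are parts of each library and not its depth. Among markers of the cells, luminal breast genes had 2 of 12 members in the table, TFF1 (50724 against 7 reads) and TFF3 (2447 against 61), with summed expression values of 6048 (knockout) and 4.62 (wild type). Mesenchymal genes of MDA-MB-231 had 2 of 10, TGFBI and ITGA5, with sums of 18.8 and 3.21, and epithelial genes had 2 of 7, EPCAM and MAL2, with sums of 658.9 and 251.4. Neural markers had 2 of 8, TUBB3 and SOX2, with sums of 81.0 and 15.7. Endothelial markers had 1 of 8, EMCN, at 4.73 and 0.33, while fibroblast and leukocyte markers had 0 of 8 each. The defining mesenchymal markers such as VIM and ZEB1 were not analysed here, so the label of the line could not be checked against them. The part of these marker differences in the results below was not tested.

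The promoters of the 2 members with the most knockout reads, LPIN2 and HENMT1, are shown because these genes were furthest from the wild-type count of 0. The RefSeq table (GRCh38.p14) holds 2 start sites for each, with 250 bases before and 50 after the start, and a read count per gene does not tell which of them was used. Capitals mark the dinucleotide CG, which reads the same on both strands and is the target of DNA methylation. All 4 stretches lie on the minus strand and are written 5′ to 3′.
LPIN2, chr18:3013095-3013394: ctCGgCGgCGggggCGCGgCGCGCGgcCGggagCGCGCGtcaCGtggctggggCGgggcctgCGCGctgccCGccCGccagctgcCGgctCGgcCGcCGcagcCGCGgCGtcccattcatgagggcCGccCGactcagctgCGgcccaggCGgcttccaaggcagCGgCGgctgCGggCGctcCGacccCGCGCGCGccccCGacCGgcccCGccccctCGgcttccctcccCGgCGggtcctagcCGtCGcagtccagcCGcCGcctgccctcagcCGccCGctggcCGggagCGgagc
LPIN2, chr18:3011898-3012197: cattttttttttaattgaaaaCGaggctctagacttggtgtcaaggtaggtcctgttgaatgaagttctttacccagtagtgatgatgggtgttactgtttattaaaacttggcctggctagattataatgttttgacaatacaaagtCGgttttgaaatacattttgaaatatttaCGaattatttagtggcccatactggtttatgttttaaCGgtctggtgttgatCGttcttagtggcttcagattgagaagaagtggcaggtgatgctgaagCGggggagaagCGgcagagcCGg
HENMT1, chr1:108661425-108661724: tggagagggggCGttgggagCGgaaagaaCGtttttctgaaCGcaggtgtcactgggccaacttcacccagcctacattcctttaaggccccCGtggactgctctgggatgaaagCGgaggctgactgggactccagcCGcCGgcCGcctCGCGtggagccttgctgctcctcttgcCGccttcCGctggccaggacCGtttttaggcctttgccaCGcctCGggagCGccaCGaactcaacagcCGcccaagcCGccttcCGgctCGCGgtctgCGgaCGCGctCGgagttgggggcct
HENMT1, chr1:108661044-108661343: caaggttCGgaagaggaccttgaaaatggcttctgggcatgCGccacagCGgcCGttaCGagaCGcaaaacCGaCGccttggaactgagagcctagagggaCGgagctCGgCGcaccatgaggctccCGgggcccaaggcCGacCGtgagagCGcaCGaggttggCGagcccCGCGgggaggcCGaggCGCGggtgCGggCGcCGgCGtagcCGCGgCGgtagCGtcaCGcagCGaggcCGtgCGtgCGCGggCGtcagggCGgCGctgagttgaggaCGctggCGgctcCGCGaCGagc

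The first LPIN2 stretch holds 52 CG in 300 bases at 83.3% G and C, a number reached by 0.78% of the 35116 promoters of the table. The second holds 8 CG, which 60.7% of promoters reach. The HENMT1 stretches hold 27 and 44, reached by 28.2% and 4.19%. At least 1 CG occurs in 96.0% of the promoters, with a median of 14. These letters say nothing of methylation in either library, which was not measured. A promoter was in the table for 64 of the 90 genes (71.1%), so a comparison of CG content over the genes was void, because under 80% had a value.

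In the knockout library the 90 genes ran from 9.51 to 1824 reads, with a median of 89.2 and quartiles of 49.2 and 200.8. The other genes of the table had a median of 720.5. On the deposited expression value, which is scaled for gene length and library depth, the 90 genes ran from 1.03 to 45.5 with a median of 2.07, against 12.9 for the others. Most of these genes were thus at the low end of the table. A value under 2 was found in 43 of the 90 and under 5 in 71, against 255 and 633 of all 2046 genes. A small number were not low, as 12 had a value of at least 10 and 3 had at least 1000 reads, against 1120 and 801 of all genes. Genes with few wild-type reads were low as well. Their median knockout reads were 147 at over 0 to 1 wild-type reads, 87.5 at over 1 to 3 and 113 at over 3 to 10. The 10 genes with the most reads held 48.4% of the 17854 knockout reads of the 90.

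**Figure D1:**
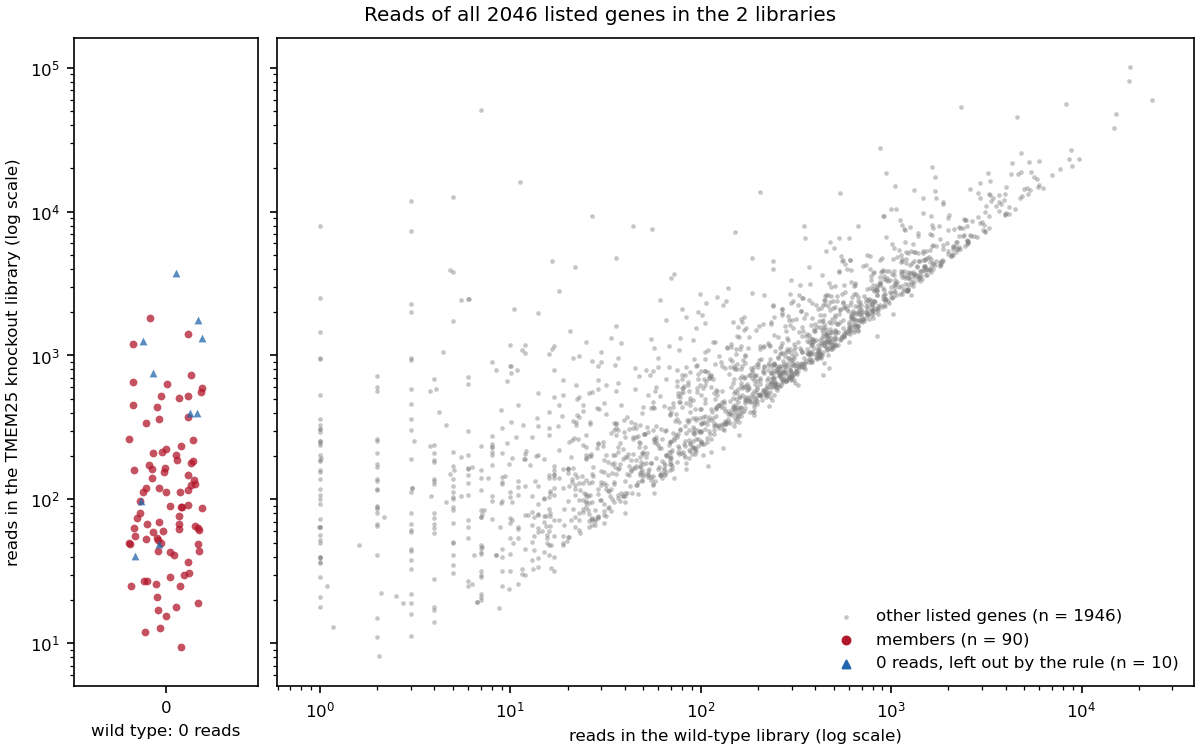
Reads of each of the 2046 genes in the wild-type library (horizontal, log scale, with a count of 0 in the strip at the left) and in the knockout library (vertical, log scale). The 90 genes described here (red) and the 10 set aside by the rule (blue triangles) have 0 wild-type reads and span knockout counts from 9.51 upwards. The grey genes beside them start at about 1 wild-type read.

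Because no fold can be formed against 0, 3 reads were put in place of each wild-type count of 0. The fold was divided by 1.16, because 1 unit of expression stood for that many times more reads in the knockout than in the wild-type library. On this lower bound 74 of the 90 were higher by at least 10-fold and 15 by at least 100-fold. Of all 2046 genes, 19.2% and 4.06% reached these folds. Genes with wild-type reads kept their own count there, so their folds are estimates and not bounds, and the shares are of unlike measures. The 74 rest on read counts: on expression values with pseudocounts of 1 and 5, 12 and 1 of the 90 reached 10-fold. The 3 reads are a one-sided bound on a count of 0, and "at least" refers to it for single genes below. The two-sided exact 95% interval of the read ratio starts lower, and its lower limit reached 10 for 69 of them, against 13.6% of all genes. In the authors' deposited table the ratio was at least 10 for all 90, against 20.1% of all genes. That count is fixed by construction, because the table puts a wild-type value of 0.1 in place of each 0 and keeps genes with a knockout value of at least 1. The rule used this contrast, so nothing is read from these counts about the genes. Intervals and bounds cover counting error only, as PCR copies of a molecule were not told apart.

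The limit of the rule lies between 0 and 1 read. Just outside it, 1 gene, LOC107985770, had 64.0 knockout reads against 0.99, and 39 genes had 1 wild-type read, with 18 to 7914 knockout reads and a median of 156. The 4 of these 39 with the most knockout reads were BASP1 with 7914 against 1, LXN with 2515 against 1, FZD6 with 1447 against 1 and MEST with 964 against 1. At the inner side, LPIN2 had 1824 reads and HENMT1 1405 against 0. In all, 97 genes of the table had 1 to 3 wild-type reads after rounding, the genes with 0.99 or 1 read included. The rule thus cuts beside genes with few wild-type reads, and whether the genes at 0 differ from these in kind was not tested.

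Metabolic enzymes and lipid carriers gave 10 of the 90 genes, with 37 to 1824 knockout reads and a median of 95.3. LPIN2 (Entrez 9663, minus strand of chromosome 18 from 2916994 to 3013315, GRCh38) had 1824 knockout reads and 0 wild-type reads, at a knockout expression value of 15.9. It had the most reads of the 90 and was 526-fold higher with 3 reads in place of the 0, while the two-sided interval started at 428-fold. Its paralog LPIN1 was in the table with reads in both libraries, 3496 against 1143, for a read fold of 2.65 with an interval of 2.48 to 2.83. LPIN2 was thus the member of the lipin pair without wild-type reads, and LPIN3 was not analysed here. Of the 21 genes of glycerolipid synthesis in the list, 6 were in the table. The 5 beside LPIN2 had a median deposited ratio of 4.04, against 3.21 over all genes of the table with wild-type reads, and such medians leave out genes at 0 here and below, whose ratio the fill-in value sets. GPAT3, an acyltransferase of the first step, had 270 against 40 reads, PLPP3, a lipid phosphate phosphatase, 687 against 80, and DGAT2, which makes triacylglycerol, 353 against 73. AGPAT3 had 3389 against 1448 reads, at the lowest deposited ratio of the 5, 2.02.

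UGT1A6, which conjugates phenols with glucuronic acid, had 341.6 knockout reads at a value of 10.3, and B3GNT5, the enzyme that starts lacto-series glycolipids, had 257.3 at 3.33. The other enzymes were lower. SDR42E1, a short-chain dehydrogenase, had 116 reads, EPHX4, an epoxide hydrolase family member, 49, DPYD, which degrades uracil and thymine, 44.2, and BCO1, which splits beta-carotene, 37. FABP5, the epidermal fatty acid carrier, had 63 reads at a value of 4.82. PGAM4, a retrotransposed copy of the glycolytic enzyme gene PGAM1, had 137.4 and PLA2G4B, a phospholipase, had 74.5, and both share sequence with other genes, as set out below.

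RNA modification and binding gave 3 genes. HENMT1 (Entrez 113802, minus strand of chromosome 1 from 108648290 to 108661526) had 1405 knockout reads and the highest expression value of the 90, 45.5, and was 405-fold higher by the 3-read bound and 329-fold at the two-sided limit. Of 20 genes of the piRNA pathway, 2 were in the table, HENMT1 and TDRD7, a tudor protein of germ granules, with 365 against 116 reads. PIWI genes, whose small RNAs HENMT1 methylates, were not among the genes analysed here. The readthrough gene C7orf55-LUC7L2, which joins a mitochondrial assembly factor to a splicing factor, had 592.3 reads, and the poly(A)-binding gene PABPC1L2B had 60.8.

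Secreted and matrix proteins were the largest group, 17 genes with 12 to 657 knockout reads and a median of 90.5. TNFRSF11B (Entrez 4982, minus strand of chromosome 8 from 118923557 to 118952200) had 657 reads at a value of 15.1 and was 190-fold higher by the 3-read bound and 154-fold at the two-sided limit. Osteoprotegerin binds RANKL and TRAIL and keeps them from their receptors. Of the 34 TNF receptors and ligands in the list, 6 were in the table, and the 5 beside TNFRSF11B had a median deposited ratio of 3.26. The closest to it in wild-type reads was TNFRSF19, a receptor of epithelial stem cells, with 156 against 1, while TNFRSF1A and LTBR were read in both libraries, at 3060 against 506.6 and 1952 against 698. RANKL and TRAIL were not analysed here.

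ANOS1, the extracellular protein anosmin that guides olfactory and GnRH neurons, had 557 knockout reads at 7.90 and was at least 161-fold higher. PCSK1N, the neuroendocrine inhibitor of a prohormone convertase, had 521 reads at 27.1, the second highest value of the 90. The metalloproteases ADAMTS1 and ADAMTS9, which cut matrix proteoglycans, had 265 and 154 reads. VWDE had 211, FSTL4, a follistatin-like protein, 179, EPDR1 161, BRINP2 81 and CTHRC1, a secreted collagen-repeat protein, 59. The ligands WNT6 and IL20, of the Wnt and IL-10 families, had 52 and 53 reads. Antimicrobial and mucosal defence genes were near the lower limit of the group, with DEFB1 at 25, CAMP, which encodes cathelicidin, at 17, S100A12 at 12 and BPIFA2 at 30. PLGLB2, a plasminogen-like gene with near copies, had 90.5.

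Transcription factors and cofactors gave 11 genes with up to 727 knockout reads and a median expression value of 1.30, the lowest of the groups. ARNT2 (Entrez 9915, plus strand of chromosome 15 from 80404350 to 80597937) had 727 reads but a value of 5.93, since 1 unit of expression stood for 122.6 reads in this gene. It was 210-fold higher by the 3-read bound and 170-fold at the two-sided limit. Of 19 bHLH-PAS factors, the family in which ARNT2 is a dimer partner, 4 were in the table, and the 3 beside ARNT2 had a median deposited ratio of 2.16. NPAS1 had 81 against 40 reads, ARNTL2 170.3 against 70.5 and the clock gene PER1 2412 against 753, so ARNT2 was the one with 0.

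ZIC4, a hindbrain factor, had 236 reads, CDCA7, a MYC and E2F target that acts in DNA methylation, 185, and BCL11B, a T cell and neuron factor, 162. SOX3, of early neural progenitors, had 98, PAX8, of thyroid and kidney, 88, and ERG, an endothelial ETS factor, 87. EOMES had 63, DMRTA1 68 and MAMLD1, a Notch coactivator, 112. The expression values of all 11 factors lay between 1.09 and 5.93.

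Signalling and cell cycle genes numbered 13, with 31 to 522 knockout reads. CNKSR3, a scaffold that acts on the epithelial sodium channel, had 522 reads at 8.54 and was at least 151-fold higher. SESN3, a stress sensor that restrains mTORC1, had 372 reads at a value of 2.10, at 177.1 reads per unit of expression the most of the 90. DLC1, a GTPase-activating protein for RhoA known as a tumour suppressor, had 224 reads. It was among the 6 genes of the table from a list of 34 often described as promoter-methylated in breast cancer. The 4 with wild-type reads were TIMP3 (586 against 3), PYCARD (326 against 58), HOXA5 (86 against 16) and CDH13 (76 against 29). Their median deposited ratio was 4.77. DCLK1, a microtubule-linked kinase, had 205, MATK, a kinase that inhibits SRC family kinases, 173, and PIP4P2, a phosphoinositide phosphatase of lysosomes, 166. RASA4B, a Ras GTPase-activating protein with a near copy, had 140.6. CCNA1, the cyclin A of the germ line, had 121 reads at 3.45. PPP1R16B had 120, BAALC 113, DDIT4L, an mTORC1 inhibitor, 77, INPP1, an inositol phosphatase, 54, and RGS17 31.

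Membrane and surface proteins gave 11 genes, 7 of them at least 10-fold higher by the lower bound, against 74 of all 90. Of all 2046 genes 19.2% were at least 10-fold higher, on their own count where they had wild-type reads. The count of 7 depends only on knockout reads above 34.7, so nothing is read from it about the group. FNDC10 had 450 reads at 11.7, and MME, the neprilysin peptidase that marks myoepithelial cells and lymphoid progenitors, had 215 at 2.34. Another 8 had 70 reads or fewer. DNER, a Notch ligand of neurons, had 70, PLPPR5 68, SELPLG, the P-selectin ligand of leukocytes, 50, and the potassium channel gene KCNK12 49. LY6D had 27, the olfactory receptor genes OR4D9 and OR4A47 had 25 and 21, and CALHM6 had 19.

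Cytoskeleton, calcium-binding and trafficking genes numbered 7. NECAB1, a neuronal calcium-binding protein, had 505.2 reads at 5.26, and SNX7, a sorting nexin, 440 at 14.7. ARC, an activity-induced protein of synapses, had 147, SMTNL2 129, CSRP2, a LIM protein of smooth muscle, 62, NUP62CL 56 and PVALB, which encodes parvalbumin, 27. Germ cell and early embryo genes numbered 7 beside HENMT1 and CCNA1. SPESP1, of the sperm acrosome, had 360 reads at 13.7, RIMBP3 125.7, SPATA18, which acts in mitochondrial quality control, 92, CCDC83 61, TEX29 26 and OOEP, of the oocyte, 18. CT45A10, with 50 reads, was the 1 gene of the table among 61 cancer-testis antigens. The genes outside these groups were FAM84A with 1206 reads at 12.3, FAM178B with 188 at 11.1, UBE2QL1 with 112, CCDC68 with 88, LOC105378260 with 41.1 and the gene listed by its number 107986803 with 12.8. FAM84A, also called LRATD1, had the third most reads and was at least 348-fold higher.

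Of the other lists examined, imprinted genes had 6 of 29 in the table, receptor tyrosine kinases 8 of 46 and glutathione S-transferases and aldo-keto reductases 7 of 27. None of the 90 was among them, but GSTT1, set aside by the rule, is in the last and had 395.7 reads against 0. The median deposited ratios were 4.38, 4.84 and, over the 6 genes beside GSTT1, 5.38. The imprinted genes MEST (964 against 1 reads) and PLAGL1 (108 against 1) lay 1 read from the rule, and the lowest wild-type count among the kinases was 10.1, of EPHA3.

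**Figure D2:**
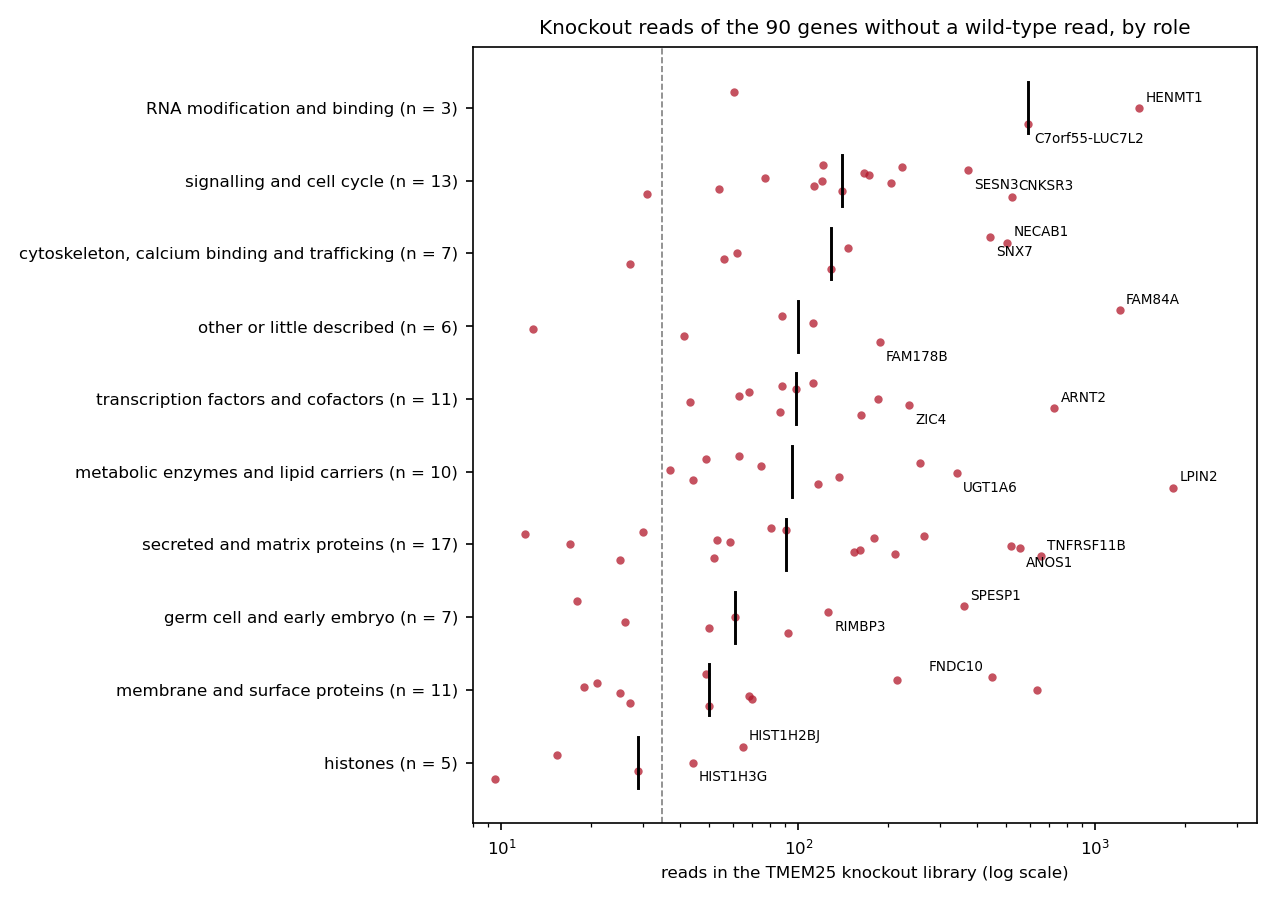
Knockout reads (log scale) of the 90 genes, 1 point a gene, in 10 groups by the role of the product, with the median as a black bar and up to 2 of the highest genes of each group named. The dashed line at 34.7 reads is where 3 reads in place of the wild-type 0 give a 10-fold difference, and 16 genes lie to its left.

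Reads and expression values ordered these genes differently, because the value is taken per length. HENMT1 led in value with 1405 reads, while LPIN2, with more reads, came at 15.9. One unit of expression stood for a median of 38.7 knockout reads in the 90 genes, from 6.01 in HIST1H4J to 177.1 in SESN3, and for a median of 49.1 over all 2046. The 5 histone genes of the chromosome 6 cluster, which make short transcripts, show the other end of this range. HIST1H2BJ had 64.9 reads at a value of 7.76, HIST1H3G 44 at 5.43, HIST1H4J 28.9 at 4.81, HIST1H2AJ 15.4 at 2.04 and HIST1H2AL 9.51 at 1.17. Replication-dependent histone messages carry no poly(A) tail, and how the library treated such messages is not given in the sources used here. Only HIST1H2BJ and HIST1H3G were at least 10-fold higher by the lower bound (18.7 and 12.7). Over all 90 genes 74 were. Of all 2046 genes 19.2% were at least 10-fold higher, on their own count where they had wild-type reads.

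**Figure D3:**
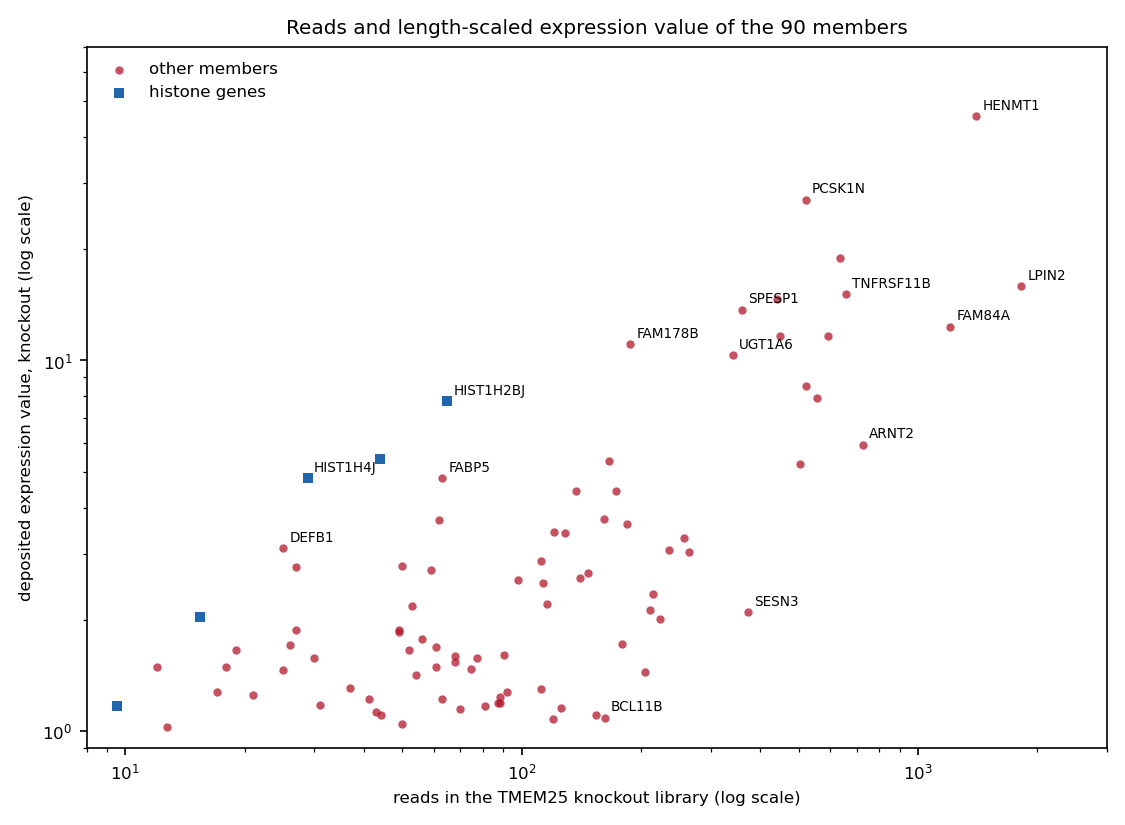
Deposited knockout expression value against knockout reads for the 90 genes, both on log scales, with histone genes as blue squares. HENMT1 (1405 reads, 45.5) and LPIN2 (1824 reads, 15.9) stand at the upper right, SESN3 and BCL11B lie low for their reads, and the histone genes lie high for theirs.

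A read that fits several genes can be given to one of them in one library and to another in the next, so a count of 0 needs the gene's sequence beside it. For each gene, all 50-base words of its GENCODE 29 transcripts were looked up in the transcripts of every other gene, on both strands. Among the 88 genes with transcripts, 69 (78.4%) had at least 90% of their words to themselves, against 79.5% of the genes of the table, and the median was 99.7% against 98.9%. Under 50% of the words were the gene's own in 11 of the 88 (12.5%), against 4.32% of all genes. These were C7orf55-LUC7L2 (2.85%), PLGLB2 (4.54%), RIMBP3 (9.46%), RASA4B (11.5%), HIST1H2AJ (16.3%), HIST1H4J (18.8%), PABPC1L2B (27.5%), PLA2G4B (29.1%), CT45A10 (29.4%), UGT1A6 (40.1%) and PGAM4 (49.3%). Their counts depend on how the authors' counting divided shared reads and are uncertain.

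The deposited counts carry the same trace, since a count that is not a whole number usually means that reads were divided between genes. Of these 11 genes, 10 had a knockout count that was not whole, CT45A10 being the exception, against 4 of the 69 with at least 90% of words their own. Over the 90 genes 17 counts were not whole (18.9%), against 43.7% in the table. These shares are at unlike depth, as the median was 89.2 knockout reads in the 90 genes and 677.8 over all genes. They do not show that reads of the 90 were shared less. The markers LPIN2, HENMT1, ARNT2 and TNFRSF11B had whole counts and 96.6%, 99.8%, 97.6% and 99.5% of words their own.

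**Figure D4:**
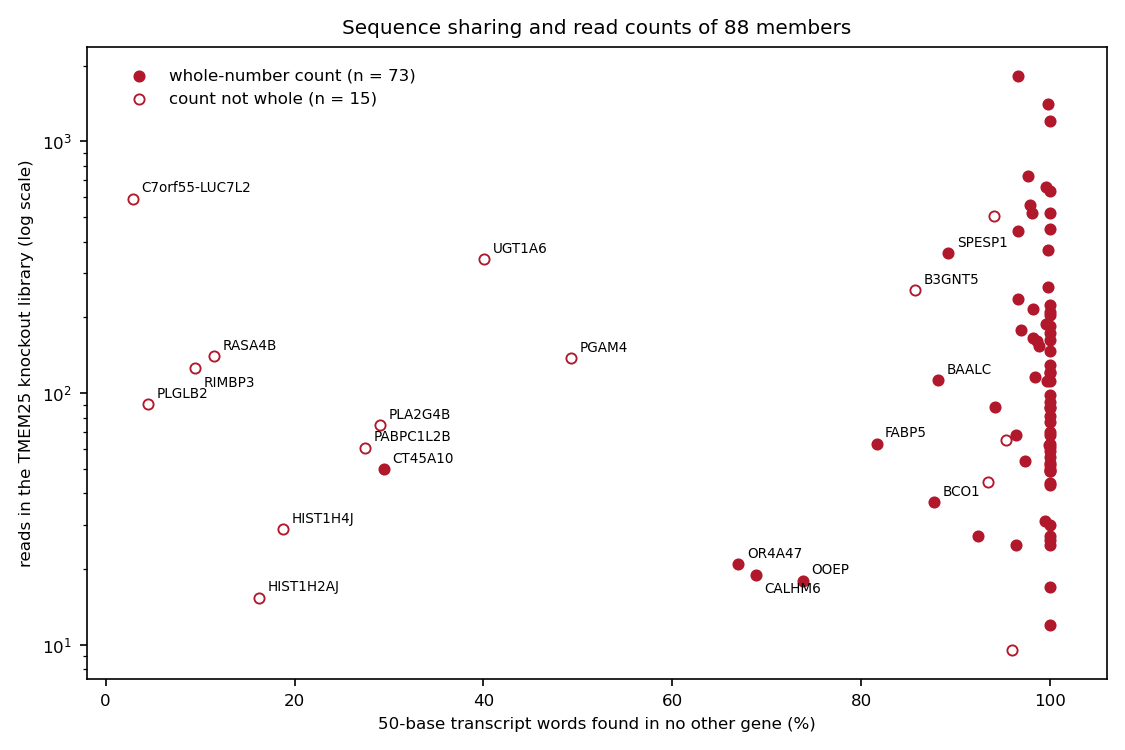
Share of each gene's 50-base transcript words found in no other gene (percent) against knockout reads (log scale) for 88 genes, filled where the count is whole and open where it is not. Most genes sit above 90%, and the 11 below 50% are open circles apart from CT45A10.

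PGAM4 and PGAM1 show how close such copies can be. Their coding sequences, of 765 bases each, differ at 13 positions (98.3% identity), and the longest run without a difference is 269 bases. The stretch of 90 bases with the most differences, bases 559 to 648 of each coding sequence in GENCODE 29, holds 4 of the 13, which are in capitals.
PGAM4: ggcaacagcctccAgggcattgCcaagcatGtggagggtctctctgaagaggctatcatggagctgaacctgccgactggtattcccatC
PGAM1: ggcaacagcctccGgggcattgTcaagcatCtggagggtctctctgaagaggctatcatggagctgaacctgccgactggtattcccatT
PGAM4 had 137.4 knockout reads against 0, and reads from the stretches alike cannot be told from those of PGAM1.

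The 88 genes with a GENCODE position lay on 22 chromosomes, with 10 each on chromosomes 2 and 8 and 9 each on 1 and 6. Chromosome X held 8 (9.09%), against 7.0% of the genes of the table with a position (141 of 2013). Another of the 90 genes lay within 1 Mb of 18 of them (20.5%), or 13 of the 83 without the histone genes (15.7%). Of the other genes of the table, 10.6% had one of the 90 within 1 Mb, with the histone genes counted. No such share was formed without them. These shares are descriptions, since neighbours on a chromosome are not independent.

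DPYD, SNX7 and PLPPR5 follow each other on chromosome 1 from 97077743 to 99005032 (GRCh38), with no other protein-coding gene between them, and had 44.2, 440 and 68 knockout reads against 0 in each. On chromosome 8, BAALC and CTHRC1, 141.2 kb apart, enclose FZD6, a Wnt receptor, and the knockout reads of the 3 in order were 113, 1447 and 59 against 0, 1 and 0. NECAB1 and PIP4P2, 34.4 kb apart on the same chromosome, had 505.2 and 166 reads. Between members of 2 other pairs, listed genes were read in both libraries. SPART between DCLK1 and CCNA1 had 1039 against 417 reads, and PSCA and THEM6 between ARC and LY6D had 308 against 42 and 2451 against 763.2. Whether the DNA of any of these stretches differed between the cells was not tested.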

How the data were processed

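RNA of 2 libraries, 1 per genotype, was analysed. Per the submitters' processing notes, CASAVA 1.4 and HISAT2 2.0.4 were used with build GRCh38.p12. The counting tool and annotation, and any use of strand, were not given in the sources used here. Per the file headers, the authors deposited an expected count and an expression value (a signal scaled for length and depth, FPKM or TPM not named) for each library and gene, and the ratio of the values, which holds in 2046 of 2046 genes (tolerance 0.001). The deposited log2 ratios over the mean have crossed headers in 2046 genes and were not used. Direction rests on the other columns. The number of columns not matched was 0.

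Folds used expected counts with 3 reads for a 0, divided by 1.16 (1133 genes with at least 100 wild-type reads), with exact 95% conditional intervals on rounded counts (scipy 1.17.1), tested on simulated data. Words of 50 bases and positions came from GENCODE 29, joined by Entrez number, and names from RefSeq (88 of 90 matched). Members and lists were chosen with earlier results of these data known, and roles were assigned after the genes were seen. Every member may be named, except that 2 are not reported here. Members with the most reads or values, the 4 markers, and 5 genes just outside the rule (fewest wild-type reads, ties by most knockout reads) were given values. The planned share of CpG-rich promoters was dropped for lack of matched promoters. Alternatives varied the rule, floor, scale and pseudocount. Precision is limited to counting error.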

Additional observations from a re-analysis of the deposited data

How the results depend on the processing

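With 1 library per genotype no replicate could be left out. No paired analysis was possible because each genotype has 1 library. The limits on shared sequence and on whole counts were chosen after seeing the data. Under fewer than 1 wild-type read, no gene left out, at least 50 knockout reads, at least 90% of words in no other gene or a whole knockout count, the 90 genes numbered 91, 100, 67, 69 and 73. With at most 3 wild-type reads they numbered 183, by construction of the wider rule. The 74 genes at least 10-fold higher numbered 69 to 90 with the interval's lower limit, 1 read for the 0, no scaling or the deposited ratio, and 59 and 61 with the limits on shared sequence and on whole counts. On expression values with pseudocounts of 1 and 5 they numbered 12 and 1, since the pseudocount lowers the ratio of low genes. The median of 89.2 knockout reads was 137.4 with at least 50 reads, by construction, and 92 to 98 otherwise. No value was formed for the share of CpG-rich promoters or its alternatives. Genes with under 34.7 knockout reads cannot reach 10-fold on the lower bound at this depth, which applies to 16 of the 90.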
